A study of Aspergillus nidulans with 12 samples.

Results

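The genes described here responded to cadmium in the reference strain of *Aspergillus nidulans*, while their level hardly differed between CdCl2-treated and untreated cultures of a mutant without *atfA*. They were chosen from the deposited RPKM values (read counts scaled by the length of the transcript and by the total of the library) by L, the log2 of the ratio of the CdCl2-treated to the untreated group mean after 1 RPKM was added to both. A gene was a member when L was at least 0.8 in the reference strain and between -0.4 and 0.4 in the mutant. The rule gave 140 members of 10988 genes, 1.27% of the table. The responses within each strain and the difference between them therefore chose the members and are given below as descriptions, without a test.

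The study compared 4 groups of submerged cultures: CdCl2-treated and untreated cultures of TNJ92, and CdCl2-treated and untreated cultures of THS30. TNJ92 carries a deletion of *atfA* with the *pyroA* gene in its place (ΔatfA::pyroA). THS30, the reference, is *atfA*+ and *pyroA*+. Both strains carry the *pyrG89* and *pyroA4* alleles and the *AfupyrG* gene. All cultures were grown from conidia for 16 h at 37 °C, and the treated cultures then received 0.2 mM CdCl2. Mycelium was taken 0.5 h later, with 3 libraries per group. Each genotype was studied as a single strain, so any other difference between TNJ92 and THS30 cannot be told apart from the loss of *atfA*.

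AtfA is a basic leucine zipper transcription factor of the ATF/CREB kind. In *Aspergillus* it acts with the stress-activated MAP kinase SakA, the end point of a phosphorelay and kinase cascade that responds to osmotic and oxidative stress, and it is needed for normal stress tolerance of conidia. Cadmium is a toxic metal that binds thiols and disturbs protein folding and redox balance. A gene may lack a response in a strain at a low level or at a level that is already raised before the treatment, and the level of each member in untreated TNJ92 separates these situations.

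The levels in untreated TNJ92 sorted the members into kinds. Of the 127 members with enough reads for a test by edgeR, 65 were higher in untreated TNJ92 than in untreated THS30 (32% of all tested genes were), and 38 were lower (29.6% of all tested genes). These counts are a description, because the rule itself favours genes with low untreated THS30 values, which raises this difference. The first kind held 19 genes of ribosome biogenesis. The second held 4 genes of mating type and pheromone signalling, of which *preA* and *MAT1* lost the untreated call in 6 and 2 of the 12 fits that left out 1 library. Whether the induction of the members needs AtfA was not tested beyond these levels, so they are called the THS30-responsive genes here.

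The deletion was visible in every library. *atfA* (AN2911) had 10.8, 11.4 and 15 RPKM in CdCl2-treated TNJ92, 14.6, 14.7 and 14.5 RPKM in untreated TNJ92, 146, 138 and 138 RPKM in CdCl2-treated THS30, and 197, 178 and 160 RPKM in untreated THS30. The strain average, the log2 fold change of TNJ92 over THS30 averaged over both conditions, was -3.58 ± 0.08 (SE, 12 libraries, edgeR adjusted p = 3.23e-16). Neither the labels nor the study's methods say which part of the gene was removed, and the origin of the remaining reads was not tested. The library totals ran from 8721119 to 13641031 counts. The 3 markers of vegetative mycelium (*actA*, *benA* and *gpdA*) summed to 6067 to 7479 RPKM in the libraries of TNJ92 and to 6207 to 6876 RPKM in those of THS30. The 7 markers of conidiophores and conidia summed to only 13.3 to 83.0 RPKM in TNJ92 and 21.0 to 36.5 RPKM in THS30, with the conidial hydrophobin gene *dewA* under 1 RPKM in every group. The 5 markers of autolysing mycelium summed to 106 to 122 RPKM in TNJ92 and 90.9 to 117 RPKM in THS30. In such bulk samples, fewer cells with a transcript and less of it per cell cannot be told apart.

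L of the members ran from 0.80 to 3.25 in THS30, and their median fitted response was -0.11 in TNJ92 and 1.03 in THS30 (log2 fold change of CdCl2-treated over untreated cultures). The fits used TMM scaling, which sets the libraries level on the bulk of their genes, and scaling by library totals, as in RPKM, moved the median response of all tested genes to 0.15 in TNJ92 and 0.13 in THS30, against 0.00 in both with TMM. With RPKM rescaled by the TMM factors the rule found 105 genes, 90 of them among the 140. In 126 of the 127 tested members, the 3 CdCl2-treated THS30 libraries all lay above the 3 untreated ones, as they did for 36.2% of all 9070 tested genes. The rule used this contrast, so the count adds nothing to it. Just inside the limit of 0.8 for L in THS30 were AN7201 with 0.8020 and AN6520 with 0.8049, and just outside were AN10978 with 0.7982 and AN11062 with 0.7960. At the upper limit of 0.4 for L in TNJ92, *sidJ* (AN6239) with 0.3965 and AN6853 with 0.3978 were inside, and AN10500 with 0.4074 and AN2565 with 0.4078 outside. At the lower limit of -0.4, *trm61* (AN8799) with -0.3819 and AN10058 with -0.3708 were inside, and *spb4* (AN3176) with -0.4067 and AN4319 with -0.4081 outside.

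The membership of single genes depended on single libraries. When each of the 12 libraries was left out in turn, the rule found 124 to 171 genes, and 63 of the 140 members met it every time. The highest count, 171, was reached both without THS30 CdCl2 replicate 3 and without THS30 untreated replicate 1. Of the 664 genes with L of at least 0.8 in THS30, 382 had L of at least 0.8 in TNJ92 too, 121 lay between 0.4 and 0.8 there, and 21 were at -0.4 or below.

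The strain average was the comparison least tied to the rule, because the rule used differences within each strain and the average over conditions shares its libraries but not its direction. In members whose strains were close in untreated cultures, it takes its sign from the CdCl2-treated cultures, which the rule used. For AN1941 the strain difference was 0.10 in untreated and -2.19 in CdCl2-treated cultures, and the average was -1.04. Where the strains were close after CdCl2, it takes its sign from the untreated cultures, in which the rule favours low THS30 values. For *lcp5* (AN5340) the strain difference was 1.10 in untreated and -0.27 in CdCl2-treated cultures, and the average was 0.42. The strain average is also not free of the rule at low levels. Adding 1 RPKM holds L near 0 for any gene with little RNA in TNJ92, so such genes met the TNJ92 side of the rule whatever their response was. By edgeR's quasi-likelihood test, 44 of the 127 tested members were higher in TNJ92 and 58 were lower, against 36.4% and 32.9% of all 9070 tested genes. As shares of the members these were 34.6% higher and 45.7% lower. The median strain average was -0.05 on the log2 scale for the members and 0.03 for all tested genes. The members spanned -9.13 to 5.20, so the median near 0 stood between wide arms in both directions. All 6 TNJ92 libraries lay below all 6 THS30 libraries in RPKM for 35 members (27.6%, against 13.8% of all tested genes) and above them for 8 members (6.30%, against 13%). Among the 61 tested members that met the rule whichever library was left out, 34.4% were higher and 52.5% lower in TNJ92.

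Much of the share of lower members came from genes that were nearly silent in TNJ92. Both TNJ92 means were under 1 RPKM in 33 of the 127 tested members, against 6.37% of all tested genes. Of these 33, 31 were lower in TNJ92 on the strain average, against 32.9% of all tested genes, whatever their level in TNJ92. The rule asks for a raised level in CdCl2-treated THS30, which favours a lower call in genes this low in TNJ92, so this count is a description. In the other 94 members, 44 were higher and 27 lower, 46.8% and 28.7%. All tested genes with a mean of at least 1 RPKM in either TNJ92 group were 38.5% higher and 30.6% lower. The median strain average was 0.16 for the 94 members and 0.07 for those genes. This average joins opposite shifts, both favoured by the rule. In untreated cultures 65 of the 94 were higher and 15 lower in TNJ92, and after CdCl2 9 were higher and 50 lower. The limit of 1 RPKM also leaves out members that were low in TNJ92. The average therefore does not show whether members with measurable RNA were lower there in either condition. The fitted response in TNJ92, which uses no added RPKM, lay between -0.4 and 0.4 in 79 of the 127 members. For members with little RNA in TNJ92 the strain difference is therefore given below as a description, without a p-value.

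**Figure D1:**
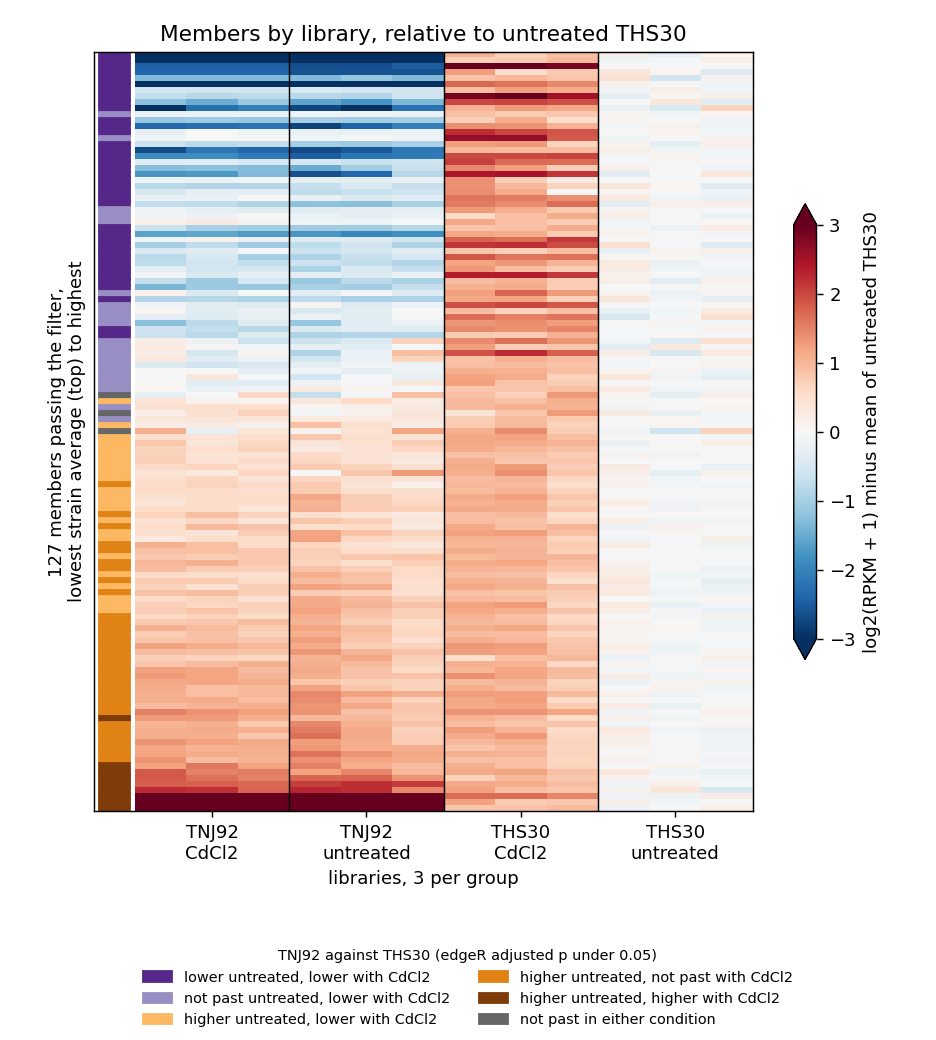
Heat map of the 127 tested members (rows, lowest strain average at the top) in the 12 libraries (columns, 3 per group), as log2(RPKM + 1) minus the mean of untreated THS30; the bar at the left gives the strain call in each condition. The 38 genes lower in both conditions are in the upper part, mixed with genes lower only after CdCl2. Most are blue in both TNJ92 groups, and paler where untreated THS30 is low. The 65 genes higher in untreated TNJ92 are in the lower part, mostly red in all groups except untreated THS30.

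Each condition was then looked at on its own. As given above, 65 members were higher and 38 lower in untreated TNJ92, 51.2% and 29.9% of those tested. In CdCl2-treated cultures 9 members were higher in TNJ92 and 82 lower, against 27.8% in either direction. These comparisons share their libraries with the rule, which placed each member lower in the second comparison than in the first by about its THS30 response, so the shift between them is a description. The median strain difference of the members was 0.45 in untreated and -0.70 in CdCl2-treated cultures, against 0.03 and 0.00 for all tested genes.

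The combination of both calls sorted the members into 5 main kinds. There were 38 members lower in TNJ92 in both conditions (29.9%, background 19.5%), and 21 that did not pass in untreated cultures and were lower after CdCl2 (16.5%, background 6.46%). There were 33 that were higher in untreated TNJ92 and did not pass after CdCl2 (26.0%, background 12.0%), and 23 that were higher in untreated TNJ92 and lower after CdCl2 (18.1%, background 1.86%). A further 9 were higher in TNJ92 in both conditions (7.09%, background 18.1%), and 3 passed in neither (2.36%, background 23.6%). Without THS30 CdCl2 replicate 1, the fourth of these kinds had 15 members in place of 23.

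The levels of these kinds differed widely. The 38 members lower in both conditions had median levels of 0.711 RPKM in CdCl2-treated and 0.485 RPKM in untreated TNJ92, against 12.2 RPKM in CdCl2-treated and 2.54 RPKM in untreated THS30. The 33 members that were higher in untreated TNJ92 and did not pass after CdCl2 had medians of 21.8 RPKM in CdCl2-treated and 24.1 RPKM in untreated TNJ92, against 22.4 RPKM in CdCl2-treated and 11.7 RPKM in untreated THS30. In these medians untreated TNJ92, CdCl2-treated TNJ92 and CdCl2-treated THS30 stood at about the same height, and untreated THS30 alone was low. The rule and the calls that define this kind set that order, so it is a description.

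**Figure D2:**
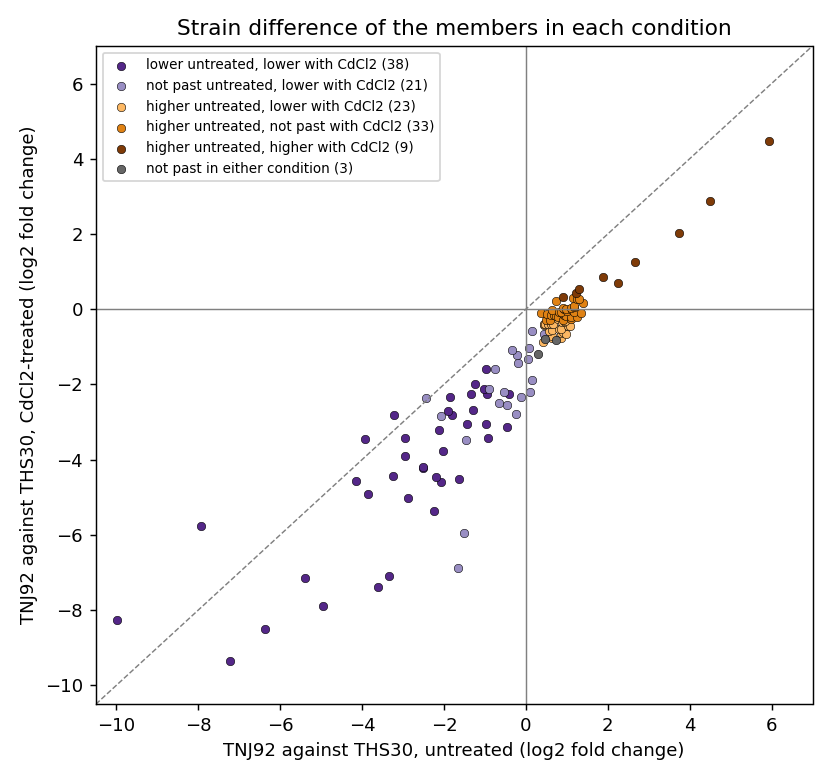
Fitted log2 fold change of TNJ92 over THS30 in untreated cultures (horizontal axis) and in CdCl2-treated cultures (vertical axis) for the 127 tested members, 1 point per gene, coloured by the calls in both conditions, with a dashed line of equal difference. Members lie mostly below this line, as the rule requires, and spread from -9.99 to 5.93 along the horizontal axis.

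The members included 4 genes of mating type and pheromone signalling. *A. nidulans* is homothallic, so a single strain carries both mating type genes. *ppgA* encodes a precursor of a peptide pheromone, *preA* a pheromone receptor of the G protein-coupled kind, *MAT1* the alpha-box regulator and *MAT2* the HMG-box regulator of mating type. On the strain average *ppgA*, *preA* and *MAT2* were lower in TNJ92, as 32.9% of all tested genes were. For *preA* the strain difference was -0.45 in untreated and -3.14 in CdCl2-treated cultures. Its call therefore rests mainly on CdCl2-treated THS30, which the rule makes high, and is a description. *MAT1* was lower too, but its TNJ92 means were 0.207 RPKM with CdCl2 and 0.0787 RPKM untreated. It met the TNJ92 side of the rule through the added 1 RPKM, so its call is a description. In all 4 the 6 TNJ92 libraries lay below the 3 CdCl2-treated THS30 libraries, as in 21.3% of all tested genes and in 52% of the tested members, a share that the rule itself raises.

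*ppgA* (AN5791) had 6.24, 6.11 and 5.08 RPKM in CdCl2-treated TNJ92, 3.78, 4.75 and 5.04 RPKM in untreated TNJ92, 103, 103 and 107 RPKM in CdCl2-treated THS30, and 24.8, 27.2 and 24.1 RPKM in untreated THS30. The TNJ92 libraries lay below every THS30 library. Its strain average was -3.36 ± 0.08 (SE, 12 libraries, edgeR adjusted p = 4.69e-16).

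*preA* (AN7743) had 2.13, 1.41 and 1.75 RPKM in CdCl2-treated TNJ92, 1.71, 1.49 and 1.95 RPKM in untreated TNJ92, 15.9, 16.3 and 13.4 RPKM in CdCl2-treated THS30, and 2.63, 2.35 and 2.03 RPKM in untreated THS30. Here the untreated strains were close, the highest TNJ92 library was above the lowest untreated THS30 library, and only CdCl2-treated THS30 stood apart. The strain average of -1.79 ± 0.12 rests mainly on that group, which the rule makes high, so it is a description.

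*MAT2* (AN4734) had 1.64, 2.36 and 1.24 RPKM in CdCl2-treated TNJ92, 1.40, 1.90 and 2.25 RPKM in untreated TNJ92, 15.6, 13 and 13.4 RPKM in CdCl2-treated THS30, and 3.72, 3.68 and 3.34 RPKM in untreated THS30. The strains did not overlap, and the strain average was -2.00 ± 0.14 (edgeR adjusted p = 1.52e-09). *MAT1* (AN2755) was scarcer, with 2.83 ± 0.313 RPKM (SD, n = 3) in CdCl2-treated THS30 and at most 0.658 RPKM in the other 9 libraries. It had 15 reads in all of CdCl2-treated TNJ92, 6 in untreated TNJ92, 185 in CdCl2-treated THS30 and 21 in untreated THS30, and a strain average of -2.89 ± 0.40. Most of its reads were in the group that the rule makes high, so this value is a description.

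A list of 10 genes of this pathway was put together after these values had been seen, so it supports nothing by itself. Of its 10 genes, 8 were lower in TNJ92 on the strain average, the 4 members among them, and the median was -0.54, against 0.03 for all tested genes. *preB*, the other pheromone receptor gene, had 5.34 ± 0.917 RPKM in CdCl2-treated and 3.96 ± 0.660 RPKM in untreated TNJ92, against 4.84 ± 0.429 RPKM in CdCl2-treated and 4.99 ± 0.869 RPKM in untreated THS30, and was no member. L in THS30 was 0.29 for the transcription factor gene *steA*, -0.27 for the MAP kinase gene *mpkB* and -0.16 for the kinase gene *ste7*, which act downstream of the receptors. It was -0.47 for *sfaD* and -0.71 for *gpgA*, which encode the beta and gamma subunits of the G protein.

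**Figure D3:**
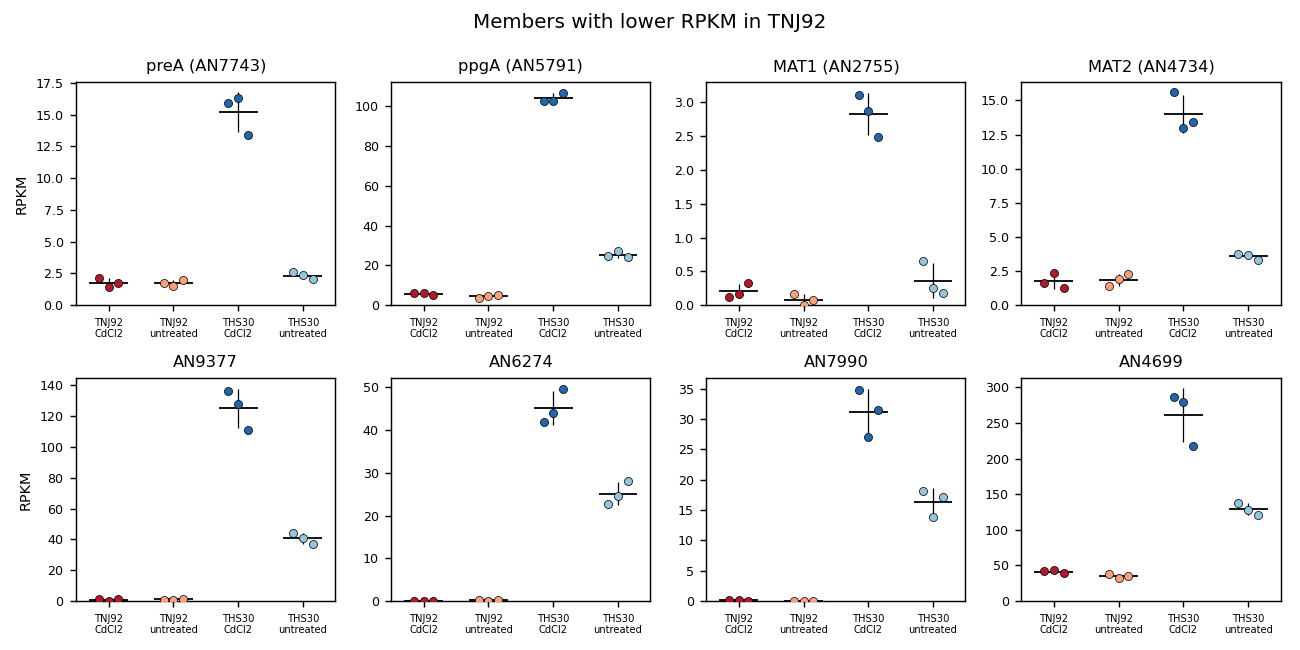
RPKM in each library of 8 members that were lower in TNJ92 on the strain average, with points for the 3 libraries of a group, a horizontal line for the mean and a vertical line for the SD. The 4 genes of mating type and pheromone are in the upper row; in the lower row AN9377, AN6274 and AN7990 have almost no reads in TNJ92, and AN4699 keeps 32.6 to 43 RPKM there.

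Of the 33 members with less than 1 RPKM in both TNJ92 groups, 23 were lower in TNJ92 in both conditions and 9 passed only after CdCl2. AN6274 had 0.0647, 0.0634 and 0.0618 RPKM in CdCl2-treated TNJ92 and 0.242, 0.0653 and 0.174 RPKM in untreated TNJ92, against 41.9, 44.1 and 49.7 RPKM in CdCl2-treated THS30 and 22.8, 24.5 and 28 RPKM in untreated THS30. These are 3 and 8 reads in the TNJ92 groups against 1949 and 1055 reads in the THS30 groups. AN7990 had 2 reads in CdCl2-treated TNJ92 and none in untreated TNJ92, against 653 reads in CdCl2-treated and 330 in untreated THS30. With a floor of 3 reads over the group, untreated TNJ92 was at least 131-fold lower than untreated THS30, where its mean was 16.4 RPKM. AN11456 had 3 reads in CdCl2-treated and none in untreated TNJ92, against 162 reads in CdCl2-treated and 78 in untreated THS30, and was at least 31.4-fold lower in the untreated comparison. These bounds cover counting error only.

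Among the 38 members lower in both conditions, AN4699 and AN9377 had the highest levels in CdCl2-treated THS30. AN9377 had 1.08, 0.289 and 1.31 RPKM in CdCl2-treated TNJ92, 0.919, 0.793 and 1.15 RPKM in untreated TNJ92, 136, 128 and 111 RPKM in CdCl2-treated THS30, and 44.4, 40.6 and 36.7 RPKM in untreated THS30. The strain average was -6.27 ± 0.15. AN4699 had 41.6, 43 and 38.8 RPKM in CdCl2-treated TNJ92, 37.4, 32.6 and 35.3 RPKM in untreated TNJ92, 287, 280 and 218 RPKM in CdCl2-treated THS30, and 138, 128 and 121 RPKM in untreated THS30. It remained well expressed in the mutant, below every THS30 library, and its strain average was -2.30 ± 0.07 (edgeR adjusted p = 1.11e-14).

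The 2 largest L of all members belonged to genes lower in both conditions. AN7116 reached L = 3.25 in THS30, with 64.0, 67.5 and 44.2 RPKM in its CdCl2-treated and 5.24, 5.27 and 5.26 RPKM in its untreated libraries. In TNJ92 it had 3 reads in the CdCl2-treated and 1 read in the untreated group, against 1098 and 95 reads in the THS30 groups. AN10325, annotated with protein kinase activity, followed with L = 2.85, and had 8 reads in each TNJ92 group against 1028 reads in CdCl2-treated and 71 in untreated THS30. AN9315 had 2.35 ± 0.564 RPKM in CdCl2-treated and 2.03 ± 2.16 RPKM in untreated TNJ92, against 50.2 ± 6.22 RPKM in CdCl2-treated and 9.18 ± 2.32 RPKM in untreated THS30. Its strain average was -3.32 ± 0.37 (edgeR adjusted p = 3.17e-05).

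The members AN10325, AN0343, AN10815 and AN2002 carry annotation terms of signalling or sensing, as does AN2366, a peptidase gene described below. AN0343 had 132 reads in CdCl2-treated THS30, against 2 in CdCl2-treated TNJ92, 1 in untreated TNJ92 and 3 in untreated THS30, so it passed the filter only through the group in which the rule makes members high. The strain averages of AN10325, AN10815 and AN2002 ran from -5.22 to -1.32. AN2002 was the best expressed of these. It had 20, 18.6 and 17.2 RPKM in CdCl2-treated TNJ92, 23.1, 24.9 and 24 RPKM in untreated TNJ92, 86.2, 81.2 and 87.8 RPKM in CdCl2-treated THS30, and 30.2, 30.1 and 33.9 RPKM in untreated THS30 (strain average -1.32 ± 0.06, edgeR adjusted p = 6.46e-12). AN10815 averaged 3.21 ± 0.491 RPKM in CdCl2-treated and 3.82 ± 0.555 RPKM in untreated TNJ92, against 33.8 ± 3.16 RPKM in CdCl2-treated and 7.25 ± 2.45 RPKM in untreated THS30 (strain average -2.18 ± 0.14, edgeR adjusted p = 3.80e-10). The strains did not overlap in either gene.

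AN7267 and AN7268 were 1 of only 2 pairs of members that lie next to each other in the RefSeq annotation, in which 130 of the 140 members were found. AN7267 averaged 1.12 ± 0.108 RPKM in CdCl2-treated and 0.981 ± 0.495 RPKM in untreated TNJ92, against 23.6 ± 2.83 RPKM in CdCl2-treated and 9.30 ± 0.770 RPKM in untreated THS30. AN7268 averaged 1.98 ± 0.529 RPKM in CdCl2-treated and 1.87 ± 0.543 RPKM in untreated TNJ92, against 29.1 ± 0.759 RPKM in CdCl2-treated and 14.6 ± 1.59 RPKM in untreated THS30. Their strain averages were -3.84 ± 0.15 (edgeR adjusted p = 3.82e-13) and -3.43 ± 0.14 (edgeR adjusted p = 5.84e-13). AN7268 overlaps another gene in that annotation, and without a stated strand setting the reads of overlapping genes cannot be told apart.

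In the 21 members that were lower in TNJ92 after CdCl2 and did not pass in untreated cultures, median levels were 1.35 RPKM in CdCl2-treated and 1.54 RPKM in untreated TNJ92, against 5.73 RPKM in CdCl2-treated and 1.64 RPKM in untreated THS30. For these genes the untreated strains were close in the median and CdCl2-treated THS30 stood above the other groups. Their strain averages therefore rest mainly on CdCl2-treated THS30, the group that the rule makes high. The most abundant, AN2366, annotated as a peptidase, had 236, 205 and 229 RPKM in CdCl2-treated TNJ92, 259, 296 and 276 RPKM in untreated TNJ92, 582, 598 and 564 RPKM in CdCl2-treated THS30, and 293, 308 and 333 RPKM in untreated THS30. It was the member with the highest mean RPKM, and its strain average was -0.80 ± 0.06 (edgeR adjusted p = 4.92e-09).

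AN5446, also abundant, had 99.3, 103 and 104 RPKM in CdCl2-treated TNJ92, 75.8, 80.9 and 88.2 RPKM in untreated TNJ92, 144, 154 and 147 RPKM in CdCl2-treated THS30, and 68.3, 72.4 and 77.0 RPKM in untreated THS30. It differed less between the strains, by -0.22 ± 0.06 on the average (edgeR adjusted p = 0.00403). AN4191 averaged 13.9 ± 4.49 RPKM in CdCl2-treated and 16.9 ± 5.64 RPKM in untreated TNJ92, against 62.0 ± 3.51 RPKM in CdCl2-treated and 24.2 ± 1.62 RPKM in untreated THS30 (strain average -1.36 ± 0.18, edgeR adjusted p = 4.44e-05). AN1941 averaged 7.76 ± 2.28 RPKM in CdCl2-treated and 8.81 ± 6.22 RPKM in untreated TNJ92, against 34.5 ± 5.86 RPKM in CdCl2-treated and 8.17 ± 2.43 RPKM in untreated THS30, with a strain average of -1.04 ± 0.32 (edgeR adjusted p = 0.0166). The untreated TNJ92 libraries of AN1941 spread from 3.79 to 15.8 RPKM.

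*agnE* (AN1604), a putative alpha-1,3-glucanase gene of cell wall degradation, was the only member among the 99 genes of cell wall synthesis and degradation. It averaged 1.18 ± 0.630 RPKM in CdCl2-treated and 1.42 ± 1.30 RPKM in untreated TNJ92, against 5.73 ± 0.773 RPKM in CdCl2-treated and 1.52 ± 0.826 RPKM in untreated THS30. Its strain average of -1.22 ± 0.42 passed the test (edgeR adjusted p = 0.0235) and missed it without THS30 untreated replicate 3 (-0.93, edgeR adjusted p = 0.0939). AN6450, a tetrahydroxynaphthalene reductase gene of the pkb cluster, was scarce, with 25 reads in CdCl2-treated and 14 in untreated TNJ92, against 67 in CdCl2-treated and 20 in untreated THS30 (strain average -1.17 ± 0.32).

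The largest functional group among the members was ribosome biogenesis. Eukaryotic ribosomes are assembled in the nucleolus, where a long precursor RNA is cut, modified and folded with the help of helicases, methyltransferases and the small-subunit processome, and growing cells spend much of their transcription on it. Of 185 genes in the study's ribosome biogenesis group 19 were members, 10.3% against 1.27% of the whole table. In all 19, the 3 untreated TNJ92 libraries lay above the 3 untreated THS30 libraries. This held for 35.5% of all tested genes and 50.4% of the tested members, a share that the rule itself raises. On the strain average 15 of the 19 were higher in TNJ92 and the other 4 did not pass, with a median of 0.39 for the 19. Of all tested genes 36.4% were higher, and of the tested members 34.6%.

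The 19 genes had L of 0.81 to 1.29 in THS30 and -0.37 to 0.32 in TNJ92. Their strain difference was 0.53 to 1.39 in untreated cultures, with all 19 higher in TNJ92. So were 32% of all tested genes and 51.2% of the tested members, a share that the rule raises. After CdCl2 it was -0.76 to 0.44, with 1 gene higher and 6 lower in TNJ92. Of all tested genes 27.8% were higher and 27.8% lower there, and of the tested members 64.6% were lower. *lcp5* (AN5340), whose yeast counterpart works in the small-subunit processome, had 37.2, 36.4 and 35.3 RPKM in CdCl2-treated TNJ92, 48.9, 39.7 and 35.3 RPKM in untreated TNJ92, 47, 44.8 and 35.8 RPKM in CdCl2-treated THS30, and 20.4, 17.2 and 19.5 RPKM in untreated THS30. Untreated THS30 lay below the other 3 groups, which overlapped. The strain average of 0.42 ± 0.09 (edgeR adjusted p = 0.000342) rests mainly on untreated THS30, where the rule favours low values.

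*nsa2* (AN2926), a gene of large-subunit maturation in yeast, averaged 57.4 ± 3.82 RPKM in CdCl2-treated and 62.4 ± 9.55 RPKM in untreated TNJ92, against 60.4 ± 6.95 RPKM in CdCl2-treated and 33.3 ± 1.06 RPKM in untreated THS30 (strain average 0.39 ± 0.08, edgeR adjusted p = 0.00032). AN4534, with the highest L of the group, had 22.2, 19.7 and 17.9 RPKM in CdCl2-treated TNJ92, 19.8, 14 and 13.3 RPKM in untreated TNJ92, 19.8, 19.7 and 17.3 RPKM in CdCl2-treated THS30, and 6.36, 7.15 and 7.92 RPKM in untreated THS30 (strain average 0.57 ± 0.11, edgeR adjusted p = 0.000147). Again untreated THS30 stood alone at the low end. The rule favours low values there, and the strain averages of both genes rest mainly on that group.

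The RNA helicase gene *dbp9* (AN6374) had a strain average of 0.32 ± 0.09 (edgeR adjusted p = 0.00325), the ribosomal RNA processing gene *rrp36* (AN6561) of 0.37 ± 0.10 (edgeR adjusted p = 0.00259), and the RNA-binding protein gene *nop9* (AN10618) of 0.28 ± 0.09 (edgeR adjusted p = 0.0144). AN10943, of large-subunit RNA maturation, had 0.39 ± 0.09 (edgeR adjusted p = 0.00104), and AN1175, of the small-subunit precursor, had 0.32 ± 0.09 (edgeR adjusted p = 0.00498). In each of these 5 genes, untreated THS30 had the lowest mean of the 4 groups, between 10.9 and 20.2 RPKM. The rule favours low values in that group, and these positive strain averages rest mainly on it.

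The rest of the group had the same order in untreated cultures. Of the 166 ribosome biogenesis genes that were not members, 148 were higher in untreated TNJ92, against 32% of all tested genes, with a median of 0.79 on the log2 scale. On the strain average 123 were higher, against 36.4% of all tested genes, with a median of 0.39. Only 7 of these 166 had L of at least 0.8 in THS30, and their median L in TNJ92 was -0.42. The 19 members had a median L in TNJ92 of -0.12 and a median strain difference of 0.94 in untreated cultures. The rule separated members from the rest by L in both strains and favours a larger untreated difference. The contrast between the 19 and the 166 is therefore a description.

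**Figure D4:**
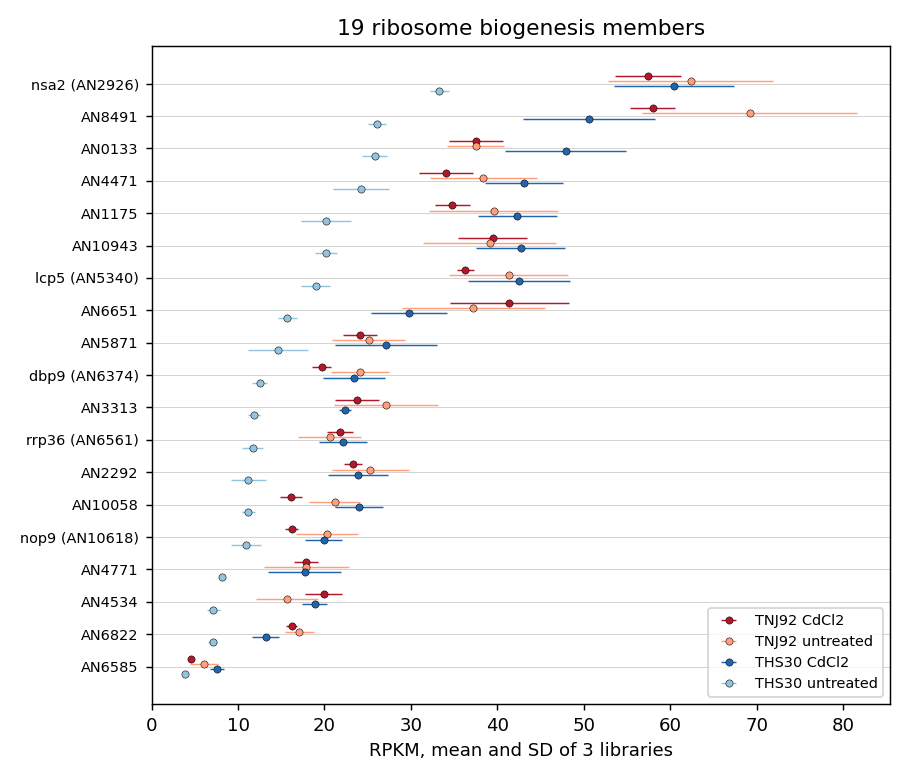
Mean RPKM (points) and SD (bars) of 3 libraries in the 4 groups for the 19 ribosome biogenesis members, ordered by their level in untreated THS30. In every gene untreated THS30 has the lowest mean, by little in AN6585, where CdCl2-treated TNJ92 averages 4.60 RPKM and untreated THS30 3.83 RPKM.

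Further members with annotated work on RNA were collected after their values had been seen, and not every member with such terms was taken. There were 7 that act on ribosome assembly outside the study's group, the helicase genes *dbp4* (AN0589), *dbp8* (AN4903) and *rrp3* (AN4233) and *pxr1* (AN11066), named after yeast genes of ribosomal RNA processing, and AN4617, AN2077 and AN10052. All 7 were higher in untreated TNJ92, by 0.87 to 1.35, and 6 of the 7 on the strain average, against 32% and 36.4% of all tested genes and 51.2% and 34.6% of the tested members. AN0757 and AN0637 also carry ribosome biogenesis terms outside the study's group and were left out of this set. They were higher in untreated TNJ92 by less, 0.61 and 0.49. Their strain averages did not pass (0.11 ± 0.06, edgeR adjusted p = 0.134, and 0.10 ± 0.11, edgeR adjusted p = 0.451). *dbp4* averaged 17.9 RPKM in CdCl2-treated and 15.3 RPKM in untreated TNJ92, against 18 RPKM in CdCl2-treated and 7.54 RPKM in untreated THS30 (strain average 0.48 ± 0.09, edgeR adjusted p = 0.000111). That average too rests mainly on untreated THS30, where the rule favours low values.

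Another 6 of the collected members act on transfer RNA or on the modification of RNA. These were the tRNA methyltransferase gene *trm61* (AN8799), AN0956, AN6165, AN9406, AN0072 and the aminoacyl-tRNA ligase gene AN1913, while AN0757, which also has terms of transfer RNA modification, was left out. All 6 were higher in untreated TNJ92, by 0.37 to 0.98, as 32% of all tested genes and 51.2% of the tested members were. On the strain average 3 of the 6 were higher, where 36.4% of all tested genes were. AN1913 was the most abundant, with 195, 228 and 194 RPKM in CdCl2-treated TNJ92, 170, 158 and 147 RPKM in untreated TNJ92, 228, 238 and 174 RPKM in CdCl2-treated THS30, and 120, 121 and 122 RPKM in untreated THS30. Its strain average of 0.14 ± 0.08 did not pass (edgeR adjusted p = 0.11).

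AN6754 was another abundant member with this order, with 131, 125 and 132 RPKM in CdCl2-treated TNJ92, 123, 132 and 133 RPKM in untreated TNJ92, 145, 153 and 152 RPKM in CdCl2-treated THS30, and 72.4, 76.5 and 74.6 RPKM in untreated THS30. Both TNJ92 groups lay between the THS30 groups and nearer to the treated one. The strain average was 0.26 ± 0.05 (edgeR adjusted p = 0.000424). AN1631, annotated as a methionine permease and the only member among 56 genes of cysteine, methionine and glutathione metabolism, averaged 6.88 ± 0.272 RPKM in CdCl2-treated and 8.78 ± 1.37 RPKM in untreated TNJ92, against 7.71 ± 1.52 RPKM in CdCl2-treated and 3.97 ± 0.555 RPKM in untreated THS30 (strain average 0.45 ± 0.12, edgeR adjusted p = 0.00309).

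The 9 members higher in TNJ92 in both conditions included the 5 highest strain averages of all members. AN8137 had 53.6, 45.7 and 43.6 RPKM in CdCl2-treated TNJ92, 52.3, 44.2 and 36.3 RPKM in untreated TNJ92, 2.00, 2.04 and 2.23 RPKM in CdCl2-treated THS30, and 0.485, 0.677 and 0.920 RPKM in untreated THS30. Its level in TNJ92 was far above the level that CdCl2-treated THS30 reached, and the strain average was 5.20 ± 0.13 (edgeR adjusted p = 7.14e-16).

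AN3974 had 25.5, 23.4 and 30.3 RPKM in CdCl2-treated TNJ92, 25.7, 28.2 and 38.1 RPKM in untreated TNJ92, 4.39, 3.03 and 3.14 RPKM in CdCl2-treated THS30, and 1.60, 1.20 and 1.26 RPKM in untreated THS30 (strain average 3.68 ± 0.14, edgeR adjusted p = 3.32e-13). AN0890 had 65.5, 74.1 and 60.1 RPKM in CdCl2-treated TNJ92, 68.6, 57.2 and 61.5 RPKM in untreated TNJ92, 16.6, 16.7 and 14.2 RPKM in CdCl2-treated THS30, and 4.18, 4.01 and 5.56 RPKM in untreated THS30 (strain average 2.89 ± 0.09, edgeR adjusted p = 1.25e-14). AN5175 averaged 28.1 ± 0.807 RPKM in CdCl2-treated and 36.3 ± 2.07 RPKM in untreated TNJ92, against 16.7 ± 1.34 RPKM in CdCl2-treated and 7.54 ± 0.876 RPKM in untreated THS30 (strain average 1.47 ± 0.08, edgeR adjusted p = 1.48e-11). In none of these genes did the strains overlap.

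The products of 2 members work with siderophores, the small molecules with which the fungus takes up iron. *sidI* (AN0609), a gene of triacetylfusarinine C synthesis, had 9.30, 8.91 and 6.24 RPKM in CdCl2-treated TNJ92, 9.60, 9.09 and 4.88 RPKM in untreated TNJ92, 4.05, 3.04 and 2.87 RPKM in CdCl2-treated THS30, and 1.35, 1.77 and 0.564 RPKM in untreated THS30. *sidJ* (AN6239), named for an esterase that opens iron-loaded siderophores in *A. fumigatus*, had 37.7, 29.4 and 31.2 RPKM in CdCl2-treated TNJ92, 24.3, 29.1 and 20.6 RPKM in untreated TNJ92, 23.1, 24 and 19.1 RPKM in CdCl2-treated THS30, and 12.7, 9 and 8.38 RPKM in untreated THS30. Their strain averages were 1.96 ± 0.23 (edgeR adjusted p = 7.87e-06) and 0.91 ± 0.11 (edgeR adjusted p = 1.15e-06), and *sidJ* overlapped between the strains. Of 10 siderophore and iron control genes listed after the values had been seen, 7 were higher and 3 lower in TNJ92 on the strain average, against 36.4% and 32.9% of all tested genes.

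**Figure D5:**
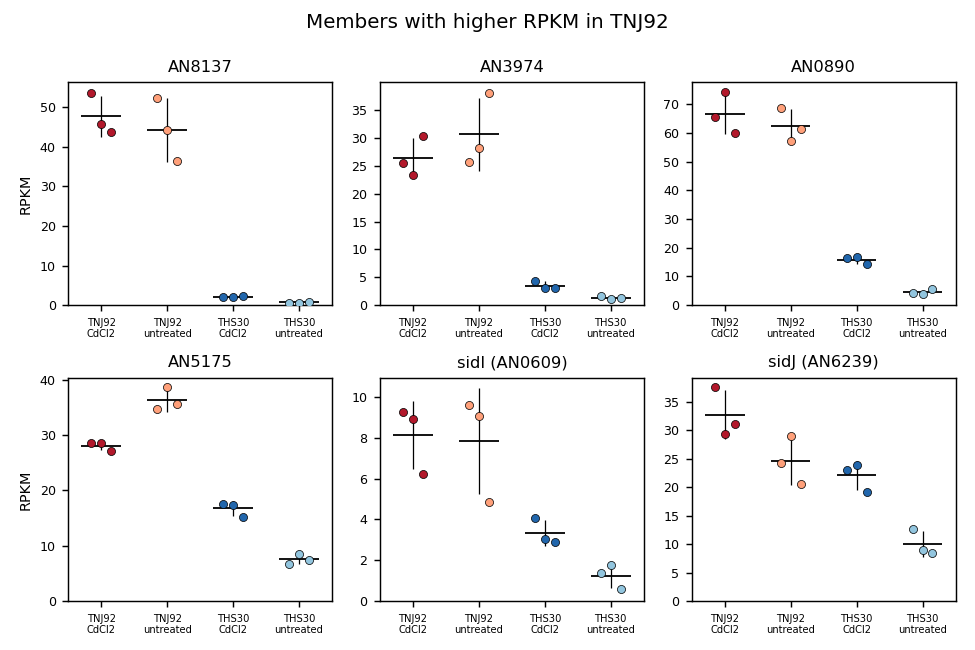
RPKM in each library of 6 members that were higher in TNJ92 on the strain average, drawn as points with a line for the group mean and a bar for the SD of 3 libraries. AN8137, AN3974, AN0890 and AN5175 lie above every THS30 library in both TNJ92 groups, as *sidI* does, while *sidJ* overlaps.

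*ivoB* (AN0231), which works in the dark pigment of conidiophores, and its neighbour AN0230 were the second adjacent pair. *ivoB* had 9.43, 8.66 and 11.2 RPKM in CdCl2-treated TNJ92, 6.76, 12.8 and 18.2 RPKM in untreated TNJ92, 15.5, 19.8 and 12.9 RPKM in CdCl2-treated THS30, and 7.75, 5.41 and 7.65 RPKM in untreated THS30. The strains overlapped, and the strain average of 0.05 ± 0.21 did not pass (edgeR adjusted p = 0.853). AN0230 had 5.00, 1.38 and 2.57 RPKM in CdCl2-treated TNJ92, 2.04, 2.85 and 5.41 RPKM in untreated TNJ92, 4.90, 6.58 and 3.82 RPKM in CdCl2-treated THS30, and 1.62, 0.880 and 3.59 RPKM in untreated THS30. It was 1 of the 3 members that passed in neither condition, with AN12004 and AN3769. AN12004, a gene of a secondary metabolite cluster, had a strain average of -0.43 ± 0.40 (edgeR adjusted p = 0.352).

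Secondary metabolite clusters held 3 members of 452 listed genes (0.664%, against 1.27% of the whole table), *sidI*, AN6450 and AN12004. No member belonged to the lists of catalases (4 genes), trehalose and glycerol metabolism (6), endoplasmic reticulum folding (5), heat shock chaperones (3), conidiation regulators (8) or sexual development regulators (6). None was found among the study's antioxidant enzyme (38), autophagy (26), cadmium efflux pump (5) or DNA repair (82) genes. With members at 1.27% of the table, lists of these sizes would hold few or none, so these absences are a description.

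The SakA cascade itself held no member, which at 1.27% of the table says little for a list this short. Of its 10 listed genes, 9 were lower and 1 higher in TNJ92 on the strain average, against 32.9% and 36.4% of all tested genes. The 9 include *atfA*, the deleted gene itself. After CdCl2 in THS30, 5 of the 10 were lower, against 21.5% of all tested genes. The MAP kinase gene *sakA* averaged 143 ± 12.1 RPKM in CdCl2-treated and 108 ± 6.64 RPKM in untreated TNJ92, against 157 ± 9.85 RPKM in CdCl2-treated and 259 ± 38.6 RPKM in untreated THS30 (strain average -0.73 ± 0.07, edgeR adjusted p = 1.36e-07). The sensor kinase gene *tcsB* had a strain average of -2.08 ± 0.07 (edgeR adjusted p = 6.00e-14), *nikA* (*tcsC* in RefSeq) -0.59 ± 0.06 (adjusted p = 7.27e-08), *pbsB* (*pbs2* in RefSeq) -0.37 ± 0.07 (adjusted p = 9.64e-05) and *sskA* -0.65 ± 0.14 (adjusted p = 0.00191). The phosphotransfer gene *ypdA* was the higher one, with 0.25 ± 0.08 (edgeR adjusted p = 0.0143).

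There were 13 members that did not pass the filter on low counts and have no test. Of these, 8 were transfer RNA genes with 2 to 25 reads over all 12 libraries and at most 5 reads in any library, so their place among the members rests on single reads. The other 5 were AN11585, AN2564, AN6408, AN7830 and AN9310, with 23 to 90 reads over all libraries. Among the 127 that passed, 8 exceeded the read level of the filter only in CdCl2-treated THS30, the group in which members are high by the rule.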

How the data were processed

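RNA of 12 libraries, 3 for each combination of strain and treatment, was measured by RNA sequencing. The replicates were described by the study as biological, and no 2 libraries of a group agreed within sampling noise. The authors aligned the reads to the genome with HISAT2 (version 2.1.0 in the submitters' processing notes). Neither the labels nor the methods name the counting tool or its strand setting. The authors deposited raw counts per gene, transcript lengths in bases and RPKM values for 10988 genes, of which 239 had no count in any library. The deposited RPKM equalled counts scaled by library total and length, so the RPKM carry no correction for composition. No column of another sample was present, and the authors' fold changes were not used.

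The rule was applied to the deposited RPKM with a pseudocount of 1 RPKM. Counts were tested with edgeR 4.0.16 (limma 3.58.1, R 4.3.3) in 1 model of the 4 groups with TMM factors, the filterByExpr filter (minimum count 10, which left 9070 genes), robust quasi-likelihood F tests and Benjamini-Hochberg adjustment over all genes tested, with a threshold of 0.05. The fold changes are on the log2 scale and the errors are standard errors. Precision depended on library totals of 8721119 to 13641031 counts and on the variation between replicates, with a common coefficient of variation of 0.109 beyond counting error. The fit and the calls were tested on simulated data.

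Named members were the following, from the 79 members with a mean of at least 10 CPM: the 10 with the largest L in THS30, the 5 with the highest and the 5 with the lowest strain average among those that passed, and the 5 with the highest RPKM. Added to these were members with a symbol in a gene list, up to 3 others per list, the genes nearest to each threshold, *atfA* and the SakA cascade. Other genes were named after their values had been seen. The members and the gene lists were chosen with earlier results of these data known. The ribosome biogenesis, cell wall, metabolism and repair groups came from the study's own gene groups. The lists of pheromone and siderophore genes and the split by annotated role were made after the values had been seen. Symbols came from the study's gene groups and from RefSeq, matched by locus tag. Alternatives were other scalings (RLE, library totals), DESeq2 1.42.0, no filter on low counts, a replicate block, other pseudocounts and thresholds in the rule, and each library left out in turn. The subset of members that met the rule without any library, and that with at least 1 RPKM in TNJ92, were chosen after seeing the data. Tables were handled with Python 3.11.15, pandas 2.3.3 and numpy 2.4.6, and figures were drawn with matplotlib 3.10.9. Promoter and protein sequences were not analysed here.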

Additional observations from a re-analysis of the deposited data

Results flagged for a closer look

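The CdCl2 response differed between the strains, by the interaction term of the edgeR fit, in 6 of the genes outside the members that belong to the SakA cascade or to the lists of pheromone and iron genes. Such differences were common. Over all 9070 tested genes, 13.2% had a higher and 13.6% a lower response in TNJ92 by the same test, and genes of other lists passed it too. The difference is the response in TNJ92 minus the response in THS30, in log2 units with its SE over 12 libraries. For *sakA* it was 1.10 ± 0.15 (edgeR adjusted p = 4.72e-05), with responses of 0.26 in TNJ92 and -0.84 in THS30. For *tcsB*, a sensor kinase gene, it was 0.61 ± 0.14 (edgeR adjusted p = 0.00362), with 0.22 in TNJ92 and -0.39 in THS30. For *srrA* (*skn7* in RefSeq), a response regulator gene, it was 0.59 ± 0.12 (edgeR adjusted p = 0.00146), with 0.07 in TNJ92 and -0.52 in THS30. The G protein subunit genes *sfaD* and *gpgA* had differences of -0.49 ± 0.12 (edgeR adjusted p = 0.00729) and -0.75 ± 0.13 (edgeR adjusted p = 0.000477). The responses of *sfaD* were -1.08 in TNJ92 and -0.59 in THS30, and those of *gpgA* were -1.59 in TNJ92 and -0.84 in THS30. For *sreA*, the iron repressor gene, the difference was -0.55 ± 0.11 (edgeR adjusted p = 0.00162), with -0.45 in TNJ92 and 0.10 in THS30.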

How the results depend on the processing

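The size of the set depended on the rule's settings. It held 180 genes with a pseudocount of 0.5 RPKM (125 of the 140 members), 110 with 2 RPKM (97 of the members), 105 with RPKM rescaled by TMM (90 of the members) and 47 with thresholds of 1.0 and 0.3 (all members). Leaving out 1 library gave 124 to 171.

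The counts of members higher and lower in TNJ92 (44 and 58 on the strain average, 65 and 38 untreated, 9 and 82 after CdCl2) stayed within 1.5 times under RLE, library totals, no filter on low counts and DESeq2. Leaving out 1 library gave 41 to 47 higher and 58 to 61 lower on the average, 62 to 65 and 35 to 41 in untreated cultures, and 7 to 10 and 75 to 88 after CdCl2. The 3 members that passed in neither condition became 12 with no filter and 6 with DESeq2, and leaving out 1 library gave 3 to 6 (6 without THS30 untreated replicate 1, 5 without TNJ92 untreated replicate 2). Leaving out 1 library gave 15 to 27 for the members that were higher in untreated cultures and lower after CdCl2, 7 to 10 for those higher in both, 30 to 41 for those higher in untreated cultures alone, 35 to 41 for those lower in both and 21 to 27 for those lower after CdCl2 alone. Of the values of named genes under the alternatives, 26 no longer passed and none changed sign. The calls of *preA* and *MAT1* in untreated cultures and of *nop9* and AN1175 after CdCl2 were among those lost when 1 library was left out.

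Neither the labels nor all the correlations show that the replicate numbers pair the samples. The 12 same-numbered pairs of numbers 1 and 3 correlated at 0.102 to 0.319 in their deviations from the group means, and the 6 pairs of number 2 at -0.134 to 0.089. With a replicate block, 45 members were higher and 58 lower on the average, 65 and 39 in untreated cultures and 13 and 86 after CdCl2, and 1 passed in neither. The cause of these shifts was not tested. With 3 libraries per group and few reads for many members in TNJ92, depth limits the fold changes of the lowest genes.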
